A study of Bos taurus with 31 samples.

Results

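The growth hormone and insulin-like growth factor (IGF) axis was followed in the liver transcriptome of lactating German Holstein cows through 10 genes, namely GHR (ENSBTAG00000001335), STAT5B (ENSBTAG00000010125), SOCS2 (ENSBTAG00000012007), IGF1 (ENSBTAG00000011082), IGFALS (ENSBTAG00000033299), IGFBP1 (ENSBTAG00000046768), IGFBP2 (ENSBTAG00000005596), IGFBP3 (ENSBTAG00000003994), IGFBP4 (ENSBTAG00000008611) and INSR (ENSBTAG00000012687). They were taken by symbol from the 24616 rows of the raw count table, where each symbol had its own row, and all 10 were among the 15916 genes tested. RNA-seq was available from 31 liver biopsies taken at the end of a feeding trial, with 1 library per cow. The CONHC group (n = 8) received a control ration with a high concentrate feed proportion (CFP), the CONLC group (n = 8) a control ration with a low CFP, and the GLYHC (n = 8) and GLYLC (n = 7) groups the corresponding rations made with glyphosate-contaminated feedstuffs. The contaminated peas, wheat grain and straw came from crops treated before harvest with the formulation Roundup Record, so that the GLY groups took up residues of a herbicide formulation and not of pure glyphosate, and the control rations were not entirely free of glyphosate. All cows were fed ad libitum with a total mixed ration of maize silage, grass silage, straw and concentrate, had passed the same adaptation period before, and were sampled by puncture biopsy, which collects all cell types of the liver.

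Growth hormone from the pituitary binds its receptor in the liver, and the signal runs through the kinase JAK2 to the transcription factor STAT5B, which switches on IGF1, IGFALS and the feedback inhibitor SOCS2. The liver releases IGF1 into the blood, where it circulates bound to binding proteins, and insulin, acting through its own receptor, raises hepatic growth hormone receptor and lowers IGFBP1 and IGFBP2. In dairy cows the axis is known to uncouple in early lactation, when energy intake is short, and to recover as energy balance improves. By the days in milk that the study reports, the cows of this trial were past early lactation.

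Gene counts summed to at least 11675775 and at most 36675542 reads per library (median 19781078). Levels are given as CPM, the count of a gene scaled to a common library size with TMM factors, as mean ± SD over cows, and are compared between cows for the same gene only, since no transcript lengths were used. The least covered member in any cow was IGFALS with 46 reads, and IGF1 had at least 107 reads in each cow. All 8 hepatocyte markers were found in every cow, with ALB, the albumin gene, between 42900 and 146840 CPM. The library of GLYLC cow 912 stood apart, with the lowest summed hepatocyte markers (64402 CPM, against 109591 to 193944 in the other cows) and the highest summed smooth muscle (1621) and intestinal epithelium (788) markers, as did CONLC cow 103 with the highest summed fibroblast markers (2160, the next cow 457). The values of the called genes over all cows are therefore also given without both. So is any value of a member named in the text that moved by more than 1.5 times. Most other values are given with all cows only. In bulk liver RNA, fewer cells of a type and less RNA per cell cannot be told apart.

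Across both rations, the liver of HC cows had more IGF1 transcript and less IGFBP2 transcript than the liver of LC cows. These differences passed narrowly, with adjusted p of 0.0893 and 0.0918 in edgeR's quasi-likelihood test against a threshold of 0.1. With 1 cow left out, both passed in 12 of 31 fits, and edgeR called neither within a single ration. IGF1, the main circulating mediator of growth hormone, rose 1.54-fold, and IGFBP2, a binding protein that is abundant in the liver when insulin is low, was 1.49-fold lower. GHR, the growth hormone receptor, and IGFALS, the subunit that stabilises IGF1 in large circulating complexes, had positive log2 fold changes that did not pass the test after adjustment. IGFBP1, an acutely insulin-repressed binding protein, had a negative one that did not pass either.

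**Figure D1:**
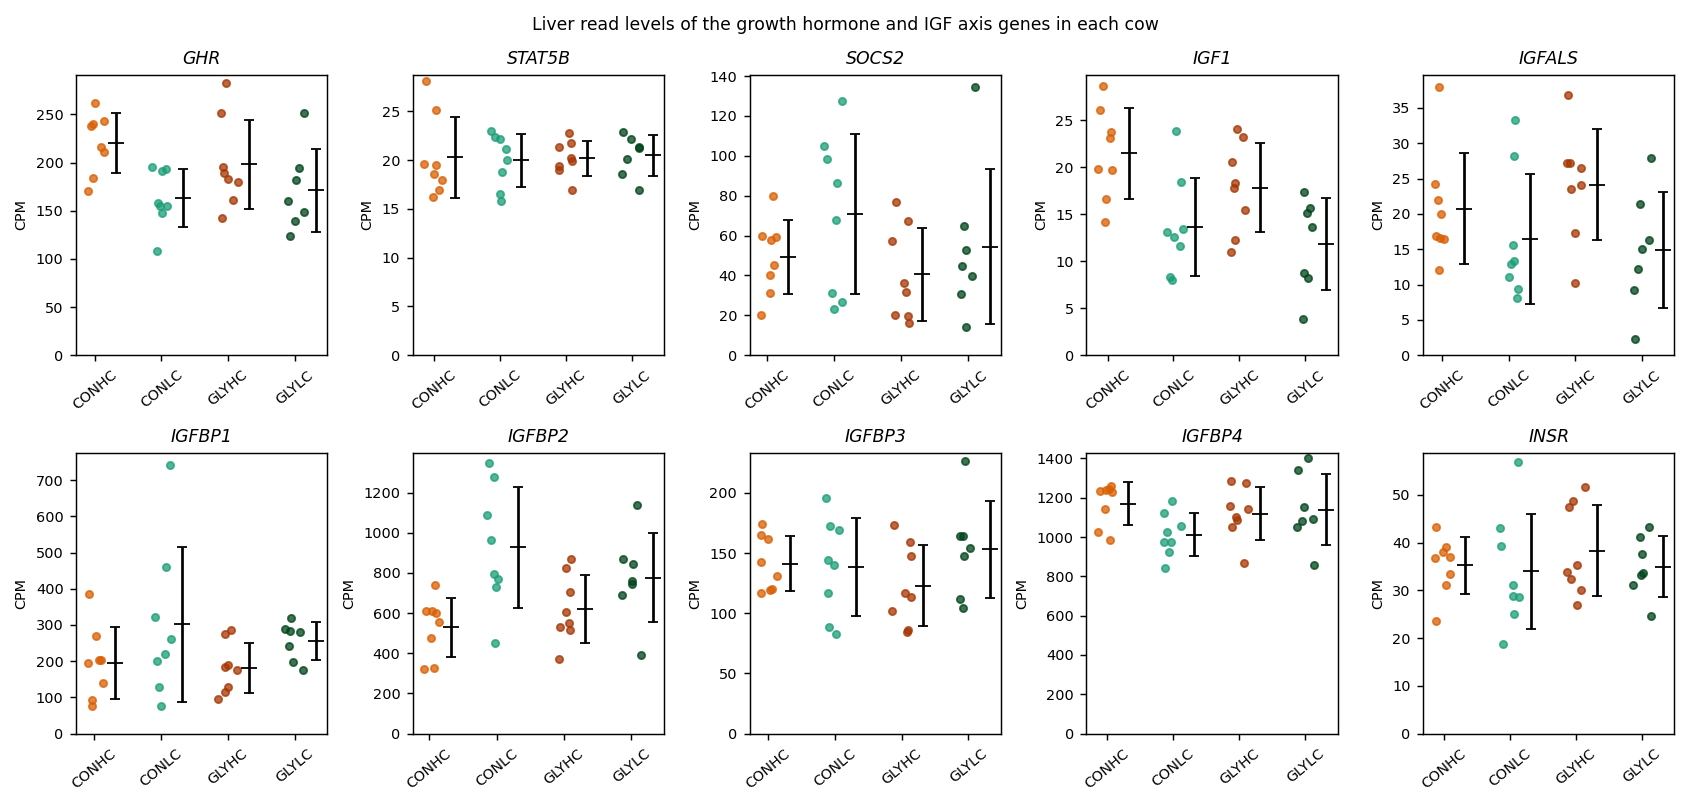
CPM (y axis, linear from 0) of the 10 genes in each of the 31 cows by feeding group (x axis), with the black bar at the group mean and whiskers of 1 SD. IGF1 has its highest group mean in CONHC (21.5) and its lowest in GLYLC (11.8), IGFBP2 has its highest in CONLC (928) and its lowest in CONHC (531), and the cows of all groups overlap.

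The first question was whether CFP changed the axis in all cows, with the ration as covariate. Calls required p under 0.05 before adjustment and under 0.1 after Benjamini-Hochberg adjustment over all tested genes in edgeR's quasi-likelihood test. Of the 10 members, 1 was called higher and 1 lower in HC cows, whereas 1.45% of all tested genes were called (0.679% higher and 0.773% lower). An unadjusted p under 0.05 was reached by 5 members (3 higher and 2 lower), beside 13.7% of all tested genes. The median log2 fold change of the members was 0.05, and that of all tested genes -0.01.

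Among the ligands, IGF1 ranged from 14.2 to 28.6 CPM in CONHC cows (median 21.5) and from 8.04 to 23.8 in CONLC cows (median 12.8). In the GLY groups it ranged from 11.0 to 24.1 in GLYHC cows (median 18.1) and from 3.91 to 17.4 in GLYLC cows (median 13.7). HC cows were on the high side, as 12 of 16 HC cows and 3 of 15 LC cows lay above the median of all cows, but the ranges overlapped. The group means were 21.5 ± 4.83 in CONHC, 17.8 ± 4.76 in GLYHC, 13.7 ± 5.22 in CONLC and 11.8 ± 4.92 in GLYLC, and groups next to each other in this order differed by less than their SDs. Over both rations IGF1 was 19.7 ± 5.002 in the 16 HC cows and 12.8 ± 4.99 in the 15 LC cows, a log2 fold change of 0.62 (SE 0.17, adjusted p = 0.0893). The call was close to the threshold. It was lost when any of 14 single cows was left out, namely CONHC 41, 133 and 208, CONLC 60, 166, 259 and 941, GLYHC 32, 127, 131, 152, 154 and 159 and GLYLC 42, with a log2 fold change between 0.56 and 0.71 and an adjusted p between 0.0557 and 0.131 over all 31 omissions. Without both cows that stood apart, the log2 fold change was 0.59 and the adjusted p 0.104.

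Among the binding proteins, IGFBP2 showed the opposite order. It ranged from 321 to 742 CPM in CONHC cows (median 579) and from 452 to 1347 in CONLC cows (median 879). In GLYHC cows it ranged from 373 to 872 (median 577) and in GLYLC cows from 391 to 1137 (median 762). LC cows were on the high side, with 12 of 15 LC cows and 3 of 16 HC cows above the median of all cows, and 5 LC cows exceeded the highest HC cow. The group means were 928 ± 301 in CONLC, 777 ± 224 in GLYLC, 622 ± 168 in GLYHC and 531 ± 147 in CONHC, again with neighbouring groups within their SDs. Over both rations IGFBP2 was 576 ± 160 in HC cows and 858 ± 270 in LC cows, a log2 fold change of -0.57 (SE 0.16, adjusted p = 0.0918). This call was lost when any of 18 single cows was left out, namely CONHC 7, 41, 133, 144, 170 and 208, CONLC 60, 145, 259 and 941, GLYHC 32, 127, 152, 154 and 159 and GLYLC 42, 209 and 905, with a log2 fold change between -0.64 and -0.52 and an adjusted p between 0.0444 and 0.137 over all 31 omissions. Without both cows that stood apart it was -0.64 (adjusted p = 0.0729). IGFBP2 belongs to the genes that the study lists as responsive to CFP in CON cows, and so does GHR, which means that these cows had already served to select both.

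IGFBP1 had the widest spread among the binding proteins, 9.90-fold from the lowest to the highest cow. It ranged from 75.001 to 386 CPM in CONHC, from 76.2 to 742 in CONLC, from 95.6 to 285 in GLYHC and from 175 to 319 in GLYLC. The group medians were 198, 241, 180 and 281 in the same order, and the groups overlapped. Its log2 fold change between HC and LC cows was -0.56 (SE 0.24, adjusted p = 0.278). IGFBP3, which carries most of the circulating IGF1 in the complex with the IGFALS product, had group means of 141 ± 22.8 in CONHC, 139 ± 40.7 in CONLC, 123 ± 33.5 in GLYHC and 153 ± 40.2 in GLYLC, and a log2 fold change of -0.14 (SE 0.13, adjusted p = 0.688). IGFBP4, which binds IGF1 and limits its action, was the most even member, with 1.67-fold between the lowest and the highest cow and a log2 fold change of 0.10 (SE 0.07, adjusted p = 0.583). Reads of IGFBP1 and IGFBP3 come from genes that lie side by side in the RefSeq annotation of ARS-UCD2.0, and the strand setting of the counting was not given in the sources used here.

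IGFALS ranged more widely than any other member, from 2.30 CPM in GLYLC cow 102 to 37.9 in CONHC cow 170. Its group means were 20.8 ± 7.89 in CONHC, 16.5 ± 9.20 in CONLC, 24.1 ± 7.80 in GLYHC and 14.9 ± 8.26 in GLYLC. HC cows thus had higher means within both rations, but the SDs overlapped, and the log2 fold change over all cows was 0.50 (SE 0.24, adjusted p = 0.336).

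At the level of the receptors, GHR ranged from 171 to 261 CPM in CONHC (median 227), from 108 to 196 in CONLC (median 157), from 143 to 283 in GLYHC (median 186) and from 124 to 252 in GLYLC (median 160). All 8 CONHC cows lay above the median of the CONLC cows, though the ranges overlapped. The group means were 220.3 ± 31.3 in CONHC, 198 ± 46.3 in GLYHC, 171 ± 42.9 in GLYLC and 163 ± 29.7 in CONLC. The log2 fold change between HC and LC cows was 0.33 (SE 0.10, adjusted p = 0.132), which did not pass the test. It passed without GLYLC cow 905 (adjusted p = 0.0669) and in DESeq2 on all cows (adjusted p = 0.0728), which called 2.73% of its genes. INSR, the insulin receptor, had group means between 34.0 and 38.3 CPM and a log2 fold change of 0.09 (SE 0.12, adjusted p = 0.807).

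The signal transducer STAT5B had nearly the same group means in all groups, between 20.001 and 20.5 CPM, with a log2 fold change of 0.00 (SE 0.07, 95% interval -0.14 to 0.15), and of -0.01 without cows 912 and 103. Its close copy STAT5A is its neighbour in the annotation, and how reads shared by both were treated is known only in that uniquely mapped reads were counted. SOCS2, the feedback inhibitor of growth hormone signalling, ranged from 14.3 to 135 CPM over all cows. Its group means were 49.3 ± 18.7 in CONHC, 70.8 ± 39.9 in CONLC, 40.7 ± 23.3 in GLYHC and 54.5 ± 38.9 in GLYLC. The log2 fold change was -0.47 (SE 0.28, adjusted p = 0.476), opposite in sign to that of IGF1, but it did not pass the test.

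**Figure D2:**
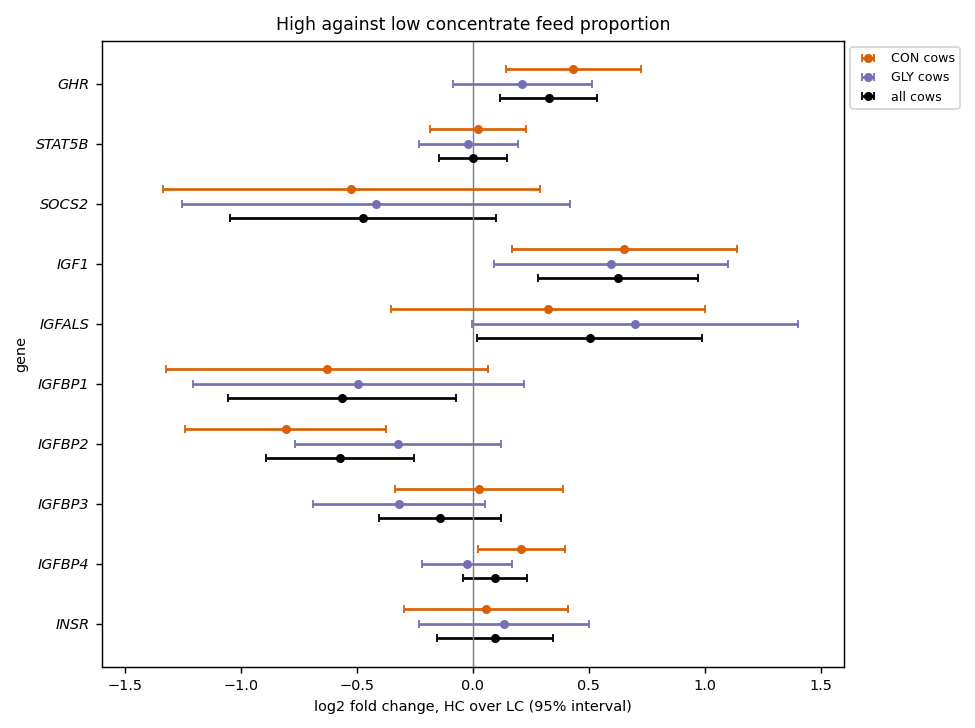
Log2 fold changes of HC over LC (x axis) of the 10 genes (y axis) in CON cows, GLY cows and all cows, with 95% intervals from edgeR's quasi-likelihood fit. For all cows, the intervals of GHR, IGF1 and IGFALS lie above 0 and those of IGFBP1 and IGFBP2 below 0, and after adjustment over all genes IGF1 and IGFBP2 were called.

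The second question was whether CFP acted alike under both rations. Within the CON groups, edgeR called none of the 10 members (0 of 10, background 0% of tested genes), although 4 of them had an unadjusted p under 0.05 (background 5.96%). These were IGFBP2 with a log2 fold change of -0.81 (SE 0.21, adjusted p = 0.370), GHR with 0.43 (SE 0.14, adjusted p = 0.592), IGF1 with 0.65 (SE 0.24, adjusted p = 0.686) and IGFBP4 with 0.21 (SE 0.09, adjusted p = 0.802). DESeq2 on all cows called 1 member, IGFBP2 (adjusted p = 0.0893, background 0.17%), and DESeq2 on the CON cows alone called 2, IGFBP2 (adjusted p = 0.0208) and GHR (adjusted p = 0.0427, background 0.539%). The log2 fold changes of IGFBP1, SOCS2 and IGFALS in the CON groups were -0.63 (SE 0.34), -0.52 (SE 0.40) and 0.32 (SE 0.33).

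Within the GLY groups, neither edgeR nor DESeq2 called a member (0 of 10, background 0.201% in edgeR, 0.898% in DESeq2 on all cows and 0.57% in DESeq2 on the GLY cows alone), and 1 member, IGF1, had an unadjusted p under 0.05 in edgeR (background 12.5%). IGF1 had a log2 fold change of 0.60 (SE 0.25, adjusted p = 0.311). Without cows 912 and 103, it was 0.45 in the GLY groups and 0.72 in the CON groups. IGFALS followed with 0.70 (SE 0.34, adjusted p = 0.404), IGFBP1 with -0.49 (SE 0.35), SOCS2 with -0.42 (SE 0.41), IGFBP2 with -0.32 (SE 0.22), IGFBP3 with -0.32 (SE 0.18), GHR with 0.21 (SE 0.15) and IGFBP4 with -0.03 (SE 0.10), or 0.03 without both cows.

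The difference between the rations was tested itself, as the interaction of GLY with CFP, and neither edgeR nor DESeq2 called a member (background 0% in edgeR and 0.00628% in DESeq2). No member had an unadjusted p under 0.05 in edgeR, beside 4.21% of all genes. For IGF1 the log2 fold change of HC over LC in GLY cows minus that in CON cows was -0.06, with a 95% interval of -0.75 to 0.64, and -0.27 without cows 912 and 103. For IGFBP2 the interaction was 0.48 (95% interval -0.14 to 1.11, adjusted p = 0.999), for GHR -0.22 (-0.64 to 0.20), for IGFALS 0.37 (-0.60 to 1.35), for IGFBP3 -0.34 (-0.86 to 0.17) and for IGFBP4 -0.23 (-0.51 to 0.04), or -0.14 without both cows. The intervals of IGF1, IGFBP2 and IGFALS include differences as large as the log2 fold changes between HC and LC themselves, so a difference between the rations was not detected and is not excluded by these data.

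**Figure D3:**
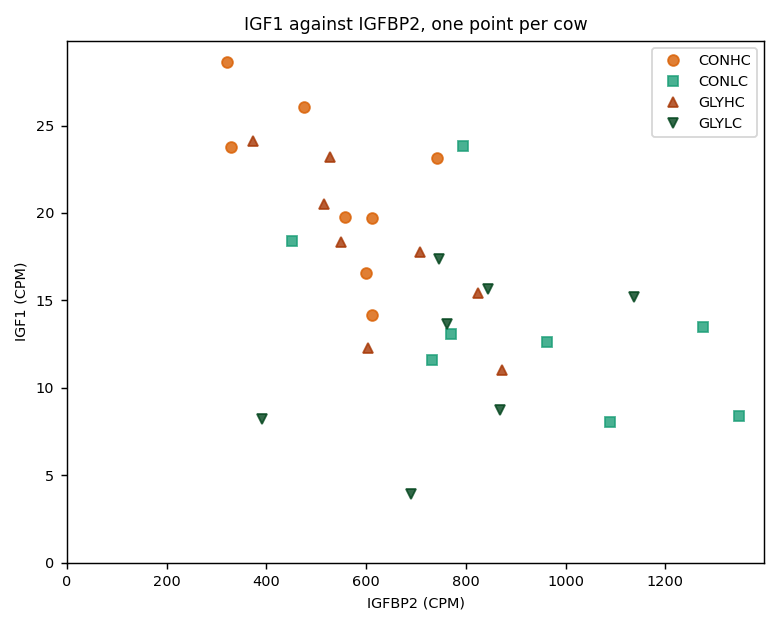
IGF1 (y axis) against IGFBP2 (x axis), both in CPM on linear axes, with 1 point per cow and 1 symbol per feeding group. HC cows tend toward the upper left and LC cows toward the lower right, with overlap, and both genes were the ones called between HC and LC. The GLYLC cow with the lowest IGF1 (3.91 CPM) is cow 912.

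Members were also compared cow by cow, on log2 CPM centred on the mean of each feeding group (n = 31, 45 pairs, two-sided permutation tests within groups, adjusted over the pairs). STAT5B and INSR were correlated with r = 0.59 (permutation p = 0.00061, adjusted p = 0.0275) and rho = 0.58 (permutation p = 0.00116, adjusted p = 0.0522). The relation had the same sign in the 4 groups, with r between 0.28 in GLYHC and 0.81 in CONLC. CONHC cow 7 and CONLC cow 166 were the cows farthest from the median of STAT5B. Without them r was 0.50 with a permutation adjusted p of 0.125, so the pair no longer passed. Leaving out other pairs of cows was not tested. No other pair passed. The next largest in size were GHR with INSR (r = 0.52, permutation adjusted p = 0.0983) and IGFALS with INSR (r = -0.48, permutation adjusted p = 0.106). IGF1 and IGFBP2 had r = -0.28 (permutation adjusted p = 0.429) and rho = -0.38 (permutation adjusted p = 0.249), with r of -0.60, -0.61 and -0.78 in CONHC, CONLC and GLYHC and of 0.40 in GLYLC. IGF1 and IGFALS had r = 0.44 (permutation adjusted p = 0.266), and GHR and IGF1 r = 0.26 (permutation adjusted p = 0.429). Without centring on the group, 6 pairs passed, among them IGF1 with IGFBP2 (r = -0.48) and GHR with IGF1 (r = 0.48), whose values then include the difference between feeding groups.

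**Figure D4:**
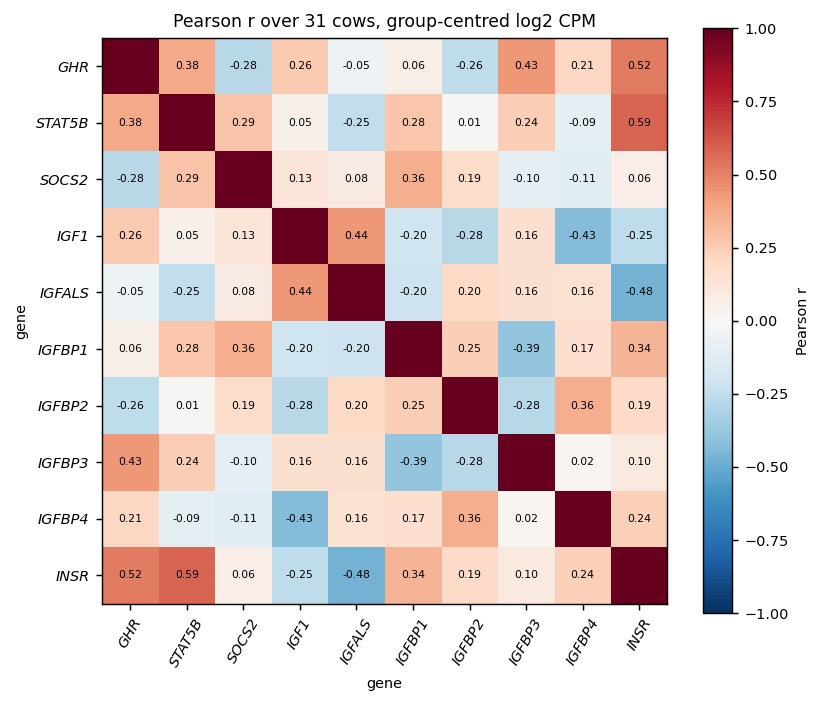
Pearson r of each pair of the 10 genes (both axes) over 31 cows, from log2 CPM centred on the feeding group, on a colour scale from -1 (blue) to 1 (red). STAT5B and INSR have the highest value (0.59), and GHR and INSR follow with 0.52.

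Of 11275 genes with a symbol and a mean of at least 1 CPM, those whose centred levels followed GHR most closely were NID1 (r = 0.81), SORT1 (r = 0.79) and AP1G1 (r = 0.78). For IGF1 they were DLG3 (r = 0.76), TF (r = 0.74) and ELOVL6 (r = 0.73), a fatty acid elongase. TF, the iron carrier transferrin, is also among the hepatocyte markers used here. For IGFBP2 they included PCK2 (r = 0.66), the mitochondrial form of a gluconeogenic enzyme, and MGLL (r = 0.65), a monoglyceride lipase. In each cow the genes are read from the same library, and these genes were picked as the highest, so the values carry no test.

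The third question was whether the glyphosate-contaminated ration changed the axis. With CFP as covariate, edgeR and DESeq2 called none of the 10 members (0 of 10, background 0% in edgeR and 0.00628% in DESeq2), and none had an unadjusted p under 0.05 in edgeR (background 3.92%). The log2 fold changes of GLY over CON lay between -0.32 for SOCS2 (95% interval -0.90 to 0.25) and 0.08 for INSR (-0.17 to 0.33). For IGF1 it was -0.24 (-0.58 to 0.10), for IGFBP1 -0.17 (-0.66 to 0.32), for GHR -0.05 (-0.25 to 0.16), for IGFBP2 -0.0048 (-0.32 to 0.31) and for IGFBP4 0.05 (-0.09 to 0.19). Without cows 912 and 103, the value was -0.14 for IGF1, -0.26 for IGFBP1, -0.01 for GHR, -0.02 for IGFBP2 and 0.0062 for IGFBP4.

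Within HC cows and within LC cows, neither edgeR nor DESeq2 called a member between GLY and CON (background in edgeR 0% and 0.0628%, in DESeq2 on all cows 0% and 0.0251%, and in DESeq2 on the compared groups 0.0334% and 0.0131%). None had an unadjusted p under 0.05 in edgeR, beside 2.92% and 5.65% of all genes. The value with the lowest unadjusted p was IGFBP4 in LC cows, with 1139.6 ± 182 CPM in GLYLC and 1012 ± 109 in CONLC and a log2 fold change of 0.17 (SE 0.10, adjusted p = 0.949), which was 0.09 without cows 912 and 103. IGF1 in LC cows had -0.21 (SE 0.25), and 0.0073 without both cows. IGFBP2 had opposite signs at the 2 levels of CFP, with 0.23 (SE 0.21) in HC cows and -0.26 (SE 0.22) in LC cows. The comparisons of GLY with CON and of HC with LC share cows, so their values are not independent of each other.

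**Figure D5:**
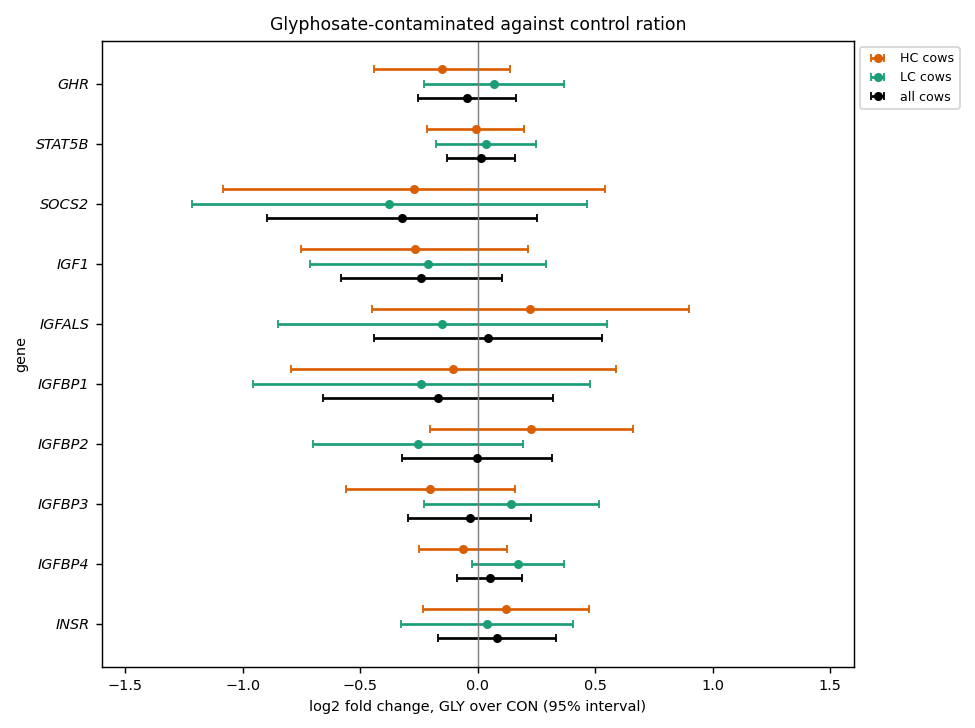
Log2 fold changes of GLY over CON (x axis) of the 10 genes (y axis) in HC cows, LC cows and all cows, with 95% intervals from edgeR's quasi-likelihood fit. Every interval includes 0, and the narrowest ones, of STAT5B and IGFBP4, lie no farther than 0.37 from 0.

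Other genes of the pathway were examined in 4 lists. In none of the 7 contrasts did edgeR call a gene of these lists, and DESeq2 on all cows called none of the genes named here in the comparison given. Counts at an unadjusted p under 0.05 are to be read beside 13.7% of all tested genes between HC and LC and 3.92% between GLY and CON. Of the 12 further genes of growth hormone receptor signalling, 2 had an unadjusted p under 0.05 between HC and LC over all cows, both higher, among them JAK2 with a log2 fold change of 0.17 (SE 0.06, adjusted p = 0.227), and the median of the list was 0.10. Between GLY and CON, 2 had one, both higher, namely the feedback inhibitor SOCS3 with 0.78 (SE 0.37) and the repressor BCL6 with 0.50 (SE 0.23), each with an adjusted p of 0.9999. Without cows 912 and 103 these were 0.47 and 0.33.

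Of 11 further ligands, receptors, binding proteins and proteases of the IGF system, 9 passed the filter on low counts. IGFBP7 was the only one of the 9 with an unadjusted p under 0.05 between HC and LC, at -0.25 (SE 0.11, adjusted p = 0.274). IGF2, the other IGF ligand, was looked at after its values were seen and had group means of 1508, 1493, 1600.1 and 1526 CPM in CONHC, CONLC, GLYHC and GLYLC. Its log2 fold change was 0.04 (SE 0.07, adjusted p = 0.867) between HC and LC and 0.06 (SE 0.07) between GLY and CON. Of 16 genes of insulin receptor signalling, FOXO3, a transcription factor restrained by insulin, had 0.28 (SE 0.13, adjusted p = 0.348) and TRIB3, an inhibitor of AKT, -0.31 (SE 0.15, adjusted p = 0.339) between HC and LC, the latter -0.15 without cows 912 and 103. Of 8 insulin- and glucagon-responsive liver genes none had an unadjusted p under 0.05 between HC and LC, and 2 had one between GLY and CON, FGF21 with 0.97 (SE 0.45, adjusted p = 0.9999, and 0.60 without cows 912 and 103) and TXNIP with -0.28 (SE 0.10, adjusted p = 0.937).

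Some markers of liver cell types also had higher or lower values in HC than in LC cows. The centred r of their sums with the members describes cows of the same feeding group. It leaves out the difference between HC and LC. Mainly the r values of IGF1, GHR and IGFBP2 that were larger in size are given, so they do not stand for all members. Over the 8 hepatocyte markers, the sum ranged from 131668 to 193944 CPM in CONHC, 127951 to 174422 in GLYHC, 109591 to 187262 in CONLC and 64402 to 179387 in GLYLC, and 2 of 8 markers had an unadjusted p under 0.05, both higher in HC, with 0 called by edgeR. Without cows 912 and 103, 3 of 8 had one and were higher, 1 had one and was lower, and again 0 were called. The centred r of this sum over 31 cows was 0.57 with IGF1 and 0.43 with GHR, and without cows 912 and 103 it was 0.24 and 0.45. The 8 Kupffer cell and macrophage markers summed to 478 to 1308 in CONHC, 554 to 1349 in GLYHC, 590 to 1092 in CONLC and 596 to 1116 in GLYLC. Of these, 5 of 8 had an unadjusted p under 0.05, all higher in HC cows, and 2 were called, while without both cows 6 had one and 0 were called. The centred r of their sum with GHR was -0.53, and -0.61 without both cows. With IGF1 and IGFBP2 it was 0.10 and -0.0058 over all cows.

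The 6 fibroblast and stellate cell markers summed to 148 to 242 in CONHC, 96.8 to 196 in GLYHC, 135 to 2160 in CONLC and 171 to 313 in GLYLC. An unadjusted p under 0.05 was found for 5 of 6, all lower in HC cows, with 1 called, and without both cows for 2, with 1 called. The centred r of their sum with IGFBP2 was -0.46, and -0.20 without both cows. With IGFBP4 it was -0.50, with and without both cows. The 5 smooth muscle markers summed to 59.1 to 279 in CONHC, 59.5 to 205 in GLYHC, 69.2 to 404 in CONLC and 91.4 to 1621 in GLYLC. An unadjusted p under 0.05 was found for 4 of 5, all lower in HC cows, with 2 called, and without both cows again for 4, with 0 called. The centred r of their sum with IGF1 was -0.51, and -0.30 without both cows. With GHR and IGFBP2 it was -0.05 and -0.08 over all cows. These counts stand beside 13.7% of all tested genes with an unadjusted p under 0.05, or 11.1% without both cows.

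Red blood cell markers were scarce, and their sum ranged from 0.0745 to 12.9 CPM in CONHC, 0.357 to 2.08 in GLYHC, 0.239 to 11.3 in CONLC and 0.321 to 6.17 in GLYLC. None of the 2 tested ones, HBB and ALAS2, had an unadjusted p under 0.05. The centred r of this sum was 0.59 with IGF1, with and without both cows, and -0.43 with IGFBP2, or -0.32 without both cows. Of 8 intestinal epithelium markers, FABP2, MUC13, BCO1 and OLFM4 were called lower in HC cows, and these calls rested on GLYLC cow 912. In that cow FABP2 was at 206 CPM and in the next cow at 0.163 CPM, and all 4 were at 0 in the median cow. Without both cows these 4 fell below the filter on low counts, and 0 of the other 4 intestinal markers were called. The endothelium, bile duct and lymphocyte lists had 0 markers with an unadjusted p under 0.05, with and without both cows. No marker of the hepatocyte, Kupffer cell, fibroblast or smooth muscle lists was at 0 in any cow. The part of these cell types in the IGF1, GHR and IGFBP2 values was not tested beyond leaving out both cows.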

How the data were processed

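Liver RNA of 31 cows was sequenced by the authors from stranded mRNA libraries. Per the labels and the study's methods, the authors used FastQC for quality control, Trim Galore for trimming, HISAT2 2.1.0 for alignment to UMD3.1, HTSeq 0.8.0 for the counts of uniquely mapped reads and DESeq2 1.20.0 for their own tests. The deposited raw counts of 24616 genes were used here, and the deposited normalized table was not used. All 31 columns were mapped by the group and animal number in their names.

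Counts of genes with at least 20 reads summed over cows entered the quasi-likelihood F test of edgeR 4.0.16 (R 4.3.3, TMM factors) in a model of the 4 groups or, over all cows, of CFP and ration. SE was derived from the log2 fold change and its F statistic. Correlations used log2 values with a prior count of 2 and 100000 permutations. The steps were tested on simulated data. Alternatives are given in the closing section. Named were all members, genes of the pathway lists that were called or had an unadjusted p under 0.05 over all cows, and the 3 genes most like GHR, IGF1 and IGFBP2. Of the genes this rule covers, 2 are not reported here. IGF2 and STAT3 were added after their values were seen. Members and lists were chosen with earlier results of these data known. The files use UMD3.1 and the gene table at hand ARS-UCD2.0, so no coordinates or sequences are given.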

Additional observations from a re-analysis of the deposited data

Results flagged for a closer look

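In 2 of 40 combinations of a member with a feeding group, the highest cow lay farther from the next than Dixon's 95% critical value allows, and chance gives about 1 in 20 groups. IGFALS in CONHC cow 170 was 37.9 CPM, and the next cow of the group was at 24.3. SOCS2 in GLYLC cow 42 was 135 CPM (134.753), and the next cow of the group was at 64.8. Neither gene was called in any contrast by edgeR.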

How the results depend on the processing

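No paired analysis was possible because the numbers in the labels are animal numbers that no 2 groups share. Between HC and LC over all cows, 2 members were called, and 0 without a filter on low counts (IGF1 adjusted p = 0.102, IGFBP2 adjusted p = 0.103), 0 at an adjusted p under 0.05 and 1 (IGFBP2) without GLYLC cow 912 and CONLC cow 103, an alternative chosen after the data were seen. Leaving out each of the 31 cows gave 0 to 2 members called, with 2 in 12 fits, 1 in 7 and 0 in 12. Over all genes, 231 of 15916 were called in the main fit and 134 without a filter. At an adjusted p under 0.05 the count over all genes was 55, without both cows 75 of 15706, and with 1 cow left out 83 to 404. Within CON, 0 members were called, against 1 by DESeq2 on all cows and 2 by DESeq2 on the compared groups. The log2 fold changes of IGF1, IGFBP2 and GHR over all cows kept their sign in all 39 alternatives.

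Signs changed for the smaller values, which reached 0.24 in size. The largest was IGFBP1 between GLYLC and CONLC, at -0.240 with all cows, -0.457 without both cows and -0.387 to 0.0972 with 1 cow left out. STAT5B between HC and LC over all cows was -0.00109 with filterByExpr, -0.0137 without both cows and -0.0376 to 0.0216 with 1 cow left out. IGFBP4 between HC and LC in GLY was 0.0251 without both cows and -0.0835 to 0.0305 with 1 cow left out. IGF1 between GLYLC and CONLC was 0.00734 without both cows. With 1 cow left out, the interaction of IGF1 ranged from -0.218 to 0.0625 and IGFBP2 between GLY and CON from -0.0557 to 0.0585. Over all 70 combinations of member and contrast, 92 of 2845 alternative values had the other sign, in 23 combinations whose main log2 fold change was at most 0.24 in size. The pair count of the correlations was 1, 6 without centring and 0 to 2 with 1 cow left out.

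Of all genes, 231 were called by edgeR between HC and LC over all cows, and 434 by DESeq2. In GLY, 32 were called, against 66 with RLE, 11 with filterByExpr, 8 with a robust fit, 7 at an adjusted p under 0.05, 143 and 87 by DESeq2 on all cows and on the compared groups, 0 by edgeR on the compared groups and 1 without both cows. In CON, 0 were called, against 27 and 81 by DESeq2 and 6 without both cows. Between GLYLC and CONLC, 10 were called, against 4 and 2 by DESeq2 and 0 with filterByExpr, a robust fit, an adjusted p under 0.05, edgeR on the compared groups or without both cows. The causes were not tested. With 7 or 8 cows per group, the SE of a member's log2 fold change within a ration reached 0.41.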

Other observations

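STAT3, which transmits cytokine and growth hormone signals, was singled out after its values were seen, and it belongs to the genes that the study chose on these cows. Its group means were 179 CPM in CONHC, 131 in CONLC, 146 in GLYHC and 217 in GLYLC, so that the order of HC and LC was opposite in the 2 rations. The interaction had a log2 value of -1.01 (SE 0.32, unadjusted p = 0.00323, adjusted p = 0.999 in edgeR) and did not pass the test over all genes. Without GLYLC cow 912 and CONLC cow 103 it was -0.63. An unadjusted p under 0.05 for this interaction was reached by 4.21% of all tested genes in edgeR. In the other pathway lists it was reached by 1 of 16 genes of insulin receptor signalling and 2 of 8 insulin- and glucagon-responsive liver genes.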
